A study of Mus musculus with 9 samples.

Results

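The genes described here are 10 well-known readouts of stress in the endoplasmic reticulum (ER) and of the integrated stress response: Atf4, Ddit3, Trib3, Chac1, Asns, Fgf21, Ppp1r15a, Hspa5, Xbp1 and Herpud1. They were taken by symbol from the 24008 genes listed in the deposited count table, and all 10 had enough counts to be among the 14379 genes tested. The series holds liver RNA sequencing of 9 mice with 1 library each, 3 in each of 3 groups. All mice were fed a NASH diet, which the labels describe as rich in fat and carbohydrate. The methods give 24 weeks of diet in the experiment design and 12 weeks in the section on the virus, and the livers were taken 4 weeks after the virus.

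The Flox group was the control and is labelled WT in the sample records. The F4MKO group lacked IRF4, a transcription factor, in skeletal muscle only, through a Cre expressed in muscle. The F4MKO + FSTL1 group was the same knockout injected in the gastrocnemius with AAV8 that expresses the secreted protein FSTL1 from the muscle MCK promoter. The study gives AAV-GFP, a control virus, to the Flox and F4MKO groups, and the sample records name no vector for them. The comparisons therefore ask how the liver's stress-response transcripts differ when a gene is removed from, or a secreted protein is added in, another organ.

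Proteins that misfold in the ER are sensed by PERK, IRE1 and ATF6, and together their outputs are called the unfolded protein response. PERK shares its target, the translation factor eIF2α, with kinases that answer to amino acid shortage, viral RNA and heme shortage, and phosphorylation of eIF2α lowers general translation while the mRNA of ATF4 is translated more. ATF4 then raises transcripts for amino acid synthesis and transport and for the factor CHOP, encoded by Ddit3. The liver secretes large amounts of protein and has a correspondingly large ER, and this response is often studied in fatty liver disease. Gene counts hold neither the phosphorylation of eIF2α, nor the translation of ATF4, nor the splicing of Xbp1, so the values below concern transcript levels alone.

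ATF4 and the ER stress factors bind short DNA motifs, and the stretches of promoter that hold them are shown for the members that have one. Sequences are from RefSeq on GRCm38.p6, read 5′ to 3′ on the strand of the gene, with the matched motif in capitals. A window from 250 bases before to 50 bases after the start site was searched on both strands for 5 motifs. The composite site of ATF4 with C/EBP factors was spelled TGATGNAA and was found in 5 of the 10 members, against 3.97% of 32851 promoters. It lay in the windows of Trib3, Chac1, Asns, Fgf21 and Herpud1, past the annotated start site in Trib3 and before it in the other genes. In Asns it read on the strand of the gene, and in the other 4 on the opposite strand, so that its reverse complement is in capitals.
Asns, chr6:7693214-7693243, minus strand: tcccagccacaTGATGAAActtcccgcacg
Trib3, chr2:152344028-152344057, minus strand: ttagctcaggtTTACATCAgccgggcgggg
Chac1, chr2:119351019-119351076, plus strand: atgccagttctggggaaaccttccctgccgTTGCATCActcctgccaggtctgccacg
Fgf21, chr7:45615602-45615659, minus strand: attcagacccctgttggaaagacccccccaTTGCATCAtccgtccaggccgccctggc

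The ER stress element, CCAAT and CCACG with 9 bases of any kind between them, was found in 0.119% of all promoters and, among the members, in that of Hspa5. Its shorter relative ERSE-II, ATTGG and CCACG with 1 base between them, was in 0.0365% of promoters and in that of Herpud1, which also holds the composite site. The cAMP response element, TGACGTCA, was in 1.79% of promoters and in that of Ppp1r15a, while the element TGACGTGG, in 0.676% of promoters, was in none of the 10. No letters of these 5 motifs were matched in the windows of Atf4, Ddit3 and Xbp1. The search took these exact spellings in this window only, so a site farther away or spelled otherwise would be missed. The stretches below set the 2 ER stress elements and the cAMP response element side by side.
Hspa5, chr2:34772020-34772049, plus strand: cttcaCCAATCGGAGGCCTCCACGacgggg
Herpud1, chr8:94386287-94386407, plus strand: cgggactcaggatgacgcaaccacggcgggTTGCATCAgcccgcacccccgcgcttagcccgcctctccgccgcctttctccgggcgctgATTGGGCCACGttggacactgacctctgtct
Ppp1r15a, chr7:45526269-45526310, minus strand: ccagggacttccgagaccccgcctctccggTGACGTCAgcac

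Library totals ran from 20656976 to 24322984 counted reads. On log2 CPM (read counts corrected for library size) of the tested genes, the first principal component placed the F4MKO libraries from 28.7 to 49.0, the Flox libraries from -5.5 to 5.5 and the F4MKO + FSTL1 libraries from -47.4 to -29.4. Irf4 is deleted in muscle, so its liver counts check no genotype. They were 101 to 132 in Flox, 120 to 130 in F4MKO and 92 to 116 in 2 F4MKO + FSTL1 libraries, and 10 in replicate 1 of that group. The hepatocyte markers Alb, Ttr, Apoa1, Apob, Trf, Hnf4a, Ass1 and Cyp2e1 summed to between 83380 and 120600 CPM, and 4 skeletal muscle markers to at most 0.2229 CPM. In whole liver, fewer cells of a type and less RNA per cell cannot be told apart.

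None of the 10 genes was differentially expressed in any of the 3 comparisons. A gene was called differentially expressed at an adjusted p under 0.05 over all tested genes (edgeR's quasi-likelihood test, Benjamini-Hochberg) and a fold change above 1.5. In F4MKO compared with Flox livers 0 of 10 members were called, and 0.271% of all tested genes were. At an unadjusted p under 0.05 the count of members was 0, against 16.9% of all genes, and DESeq2 also called 0. In F4MKO + FSTL1 compared with F4MKO livers 0 of 10 members were called, although 14.4% of all tested genes were, 11.2% lower and 3.21% higher. Here 3 members (Asns, Trib3 and Xbp1) had an unadjusted p under 0.05, against 35.3% of all genes, and DESeq2 called 1 member, Asns. In F4MKO + FSTL1 compared with Flox livers 0 of 10 were called, as 0.00695% of all genes were, with 0 members and 13.4% of all genes at an unadjusted p under 0.05 and 0 members called by DESeq2.

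**Figure D1:**
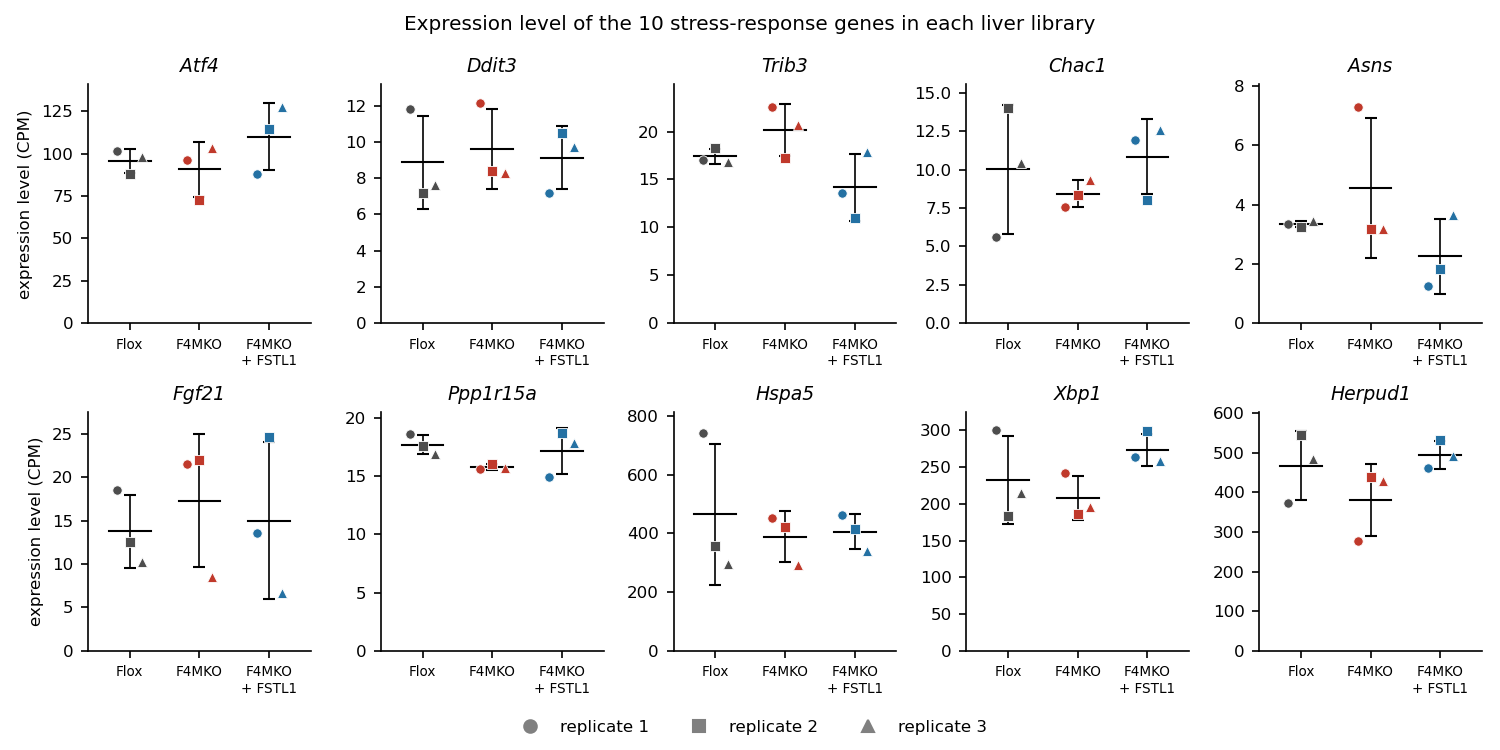
The plot gives the expression level (y axis, TMM-normalized CPM) of each of the 10 genes in the Flox, F4MKO and F4MKO + FSTL1 libraries, with symbols for replicates 1, 2 and 3, a bar at the group mean and an error bar of 1 SD over 3 mice. The groups overlap in most panels, and a single library sets the spread in several, such as Hspa5 in Flox replicate 1 (741 CPM) and Asns in F4MKO replicate 1 (7.29 CPM).

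Atf4 (chr15:80255184-80257545) encodes the transcription factor at the centre of the integrated stress response. Its level was 101, 88.0 and 97.8 CPM in Flox replicates 1 to 3, 96.5, 72.5 and 103 CPM in F4MKO and 88.1, 115 and 127 CPM in F4MKO + FSTL1 livers. The groups overlapped in each comparison, with 2 of the F4MKO + FSTL1 libraries above all others. The log2 fold change was -0.08 ± 0.16 (SE) in F4MKO compared with Flox (adjusted p = 0.841) and 0.28 ± 0.16 in F4MKO + FSTL1 compared with F4MKO (adjusted p = 0.228). For the second of these the 95% interval ran from -0.065 to 0.619, which leaves room for a difference just past 1.5-fold in the upward direction only.

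Ddit3 (chr10:127290793-127296291) encodes CHOP, a factor that ATF4 induces and that is associated with cell death under lasting stress. It measured 11.8, 7.17 and 7.63 CPM in Flox, 12.1, 8.38 and 8.26 CPM in F4MKO and 7.20, 10.5 and 9.71 CPM in F4MKO + FSTL1 livers. Replicate 1 was the highest library of both Flox and F4MKO and the lowest of F4MKO + FSTL1, and the groups overlapped. The group means lay between 8.87 and 9.59 CPM. The log2 fold changes were 0.12 ± 0.22, -0.07 ± 0.23 and 0.04 ± 0.23 in F4MKO against Flox, F4MKO + FSTL1 against F4MKO and F4MKO + FSTL1 against Flox, with adjusted p of 0.831, 0.842 and 0.968. The gene shares 71 bases with Mars on the opposite strand, and the use of strand in counting is not given in the sources used here. Mars had 1202 to 1513 counts per library, against 154 to 343 for Ddit3. The part of Mars reads in the Ddit3 counts was not tested.

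Trib3 (chr2:152337425-152344060) encodes a pseudokinase that CHOP and ATF4 induce and that restrains ATF4 in turn. Its level was 17.1, 18.3 and 16.9 CPM in Flox, 22.6, 17.3 and 20.7 CPM in F4MKO and 13.6, 10.96 and 17.9 CPM in F4MKO + FSTL1 livers. The F4MKO + FSTL1 libraries were low in replicates 1 and 2, while replicate 3 lay among the F4MKO and Flox values. Compared with F4MKO the level was 1.43-fold lower (log2 fold change -0.51 ± 0.17, 95% interval -0.876 to -0.152). The adjusted p of this difference was 0.0469, below 0.05, but the fold change stayed under 1.5, so the gene was not called. The interval holds differences on both sides of 1.5-fold. Without F4MKO + FSTL1 replicate 3 the log2 fold change was -0.71 and the gene was called (adjusted p = 0.00998), and without replicate 2 of that group it was -0.36 (adjusted p = 0.167). Leaving out F4MKO replicate 2 also brought the call, at -0.62 (adjusted p = 0.0336).

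Asns (chr6:7675165-7693209), asparagine synthetase, makes asparagine from aspartate and is a classic ATF4 target. It was the member with the fewest counts, from 27 to 206 per library. The level was 3.34, 3.24 and 3.46 CPM in Flox, 7.29, 3.18 and 3.19 CPM in F4MKO and 1.26, 1.83 and 3.66 CPM in F4MKO + FSTL1 livers. F4MKO replicate 1 stood above all other libraries, and the remaining F4MKO values lay just below those of Flox. The mean was 2.05-fold lower in F4MKO + FSTL1 than in F4MKO livers, with a log2 fold change of -1.04 ± 0.40 (adjusted p = 0.0846).

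The call on Asns moved with the tool and the library. DESeq2 gave a log2 fold change of -1.01 with an adjusted p of 0.0457 and edgeR without a filter on low counts gave -1.04 with 0.0188, both past the threshold, and over all alternatives the adjusted p ran from 0.0188 to 0.467. Without F4MKO + FSTL1 replicate 3 the log2 fold change was -1.56 (adjusted p = 0.0203). Without F4MKO replicate 1 it was -0.52 (adjusted p = 0.372). That library also had the highest Ddit3 and Trib3 levels and the lowest Herpud1 level of the 9, the lowest hepatocyte marker sum (83380 CPM) and the highest cholangiocyte marker sum (430 CPM). The part of these differences between libraries in the Asns result was not tested.

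Chac1 (chr2:119351242-119354326) encodes a glutathione-degrading enzyme induced through ATF4 and CHOP. It measured 5.62, 14.0 and 10.5 CPM in Flox, 7.57, 8.38 and 9.34 CPM in F4MKO and 11.96, 8.03 and 12.6 CPM in F4MKO + FSTL1 livers. Both the lowest and the highest value of the 9 were Flox libraries, 2.49-fold apart. The log2 fold change was -0.26 ± 0.28 in F4MKO against Flox (adjusted p = 0.677) and 0.37 ± 0.28 in F4MKO + FSTL1 against F4MKO (adjusted p = 0.375).

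Fgf21 (chr7:45613890-45615490) encodes a hormone that the liver releases in fasting, in fatty liver and under stress. Its level was 18.5, 12.6 and 10.3 CPM in Flox, 21.5, 22.0 and 8.46 CPM in F4MKO and 13.6, 24.7 and 6.69 CPM in F4MKO + FSTL1 livers. Replicate 3 was the lowest library in every group, and the values within F4MKO + FSTL1 spanned 3.69-fold. The log2 fold changes of 0.33 ± 0.43 in F4MKO against Flox (adjusted p = 0.742) and -0.21 ± 0.43 in F4MKO + FSTL1 against F4MKO (adjusted p = 0.769) were smaller than that spread. For the first, the 95% interval of -0.619 to 1.281 includes a change of 1.5-fold in either direction. Of the 5 FGF21 receptor genes listed and tested, 0 were called in each comparison, and the smallest p were those of Fgfr1 in F4MKO against Flox (log2 fold change 0.71, adjusted p = 0.0964) and F4MKO + FSTL1 against Flox (0.43, adjusted p = 0.334) and of Fgfr3 in F4MKO + FSTL1 against F4MKO (-0.36, adjusted p = 0.136).

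Ppp1r15a (chr7:45522917-45526268) encodes GADD34, the phosphatase subunit that reverses eIF2α phosphorylation. It measured 18.6, 17.6 and 16.9 CPM in Flox, 15.6, 16.1 and 15.7 CPM in F4MKO and 14.9, 18.7 and 17.8 CPM in F4MKO + FSTL1 livers. All F4MKO values lay below all Flox values, the only member of which that was true, against 21.8% of all tested genes whose values did not overlap between these groups and 10% in the lower direction. The log2 fold change was small, -0.16 ± 0.11 (adjusted p = 0.466), and in F4MKO + FSTL1 against F4MKO it was 0.12 ± 0.11 (adjusted p = 0.471). Both 95% intervals, -0.399 to 0.071 and -0.118 to 0.351, exclude a 1.5-fold difference. Ppp1r15a shares 716 bases with Tulp2 on the opposite strand, which had 11 to 29 counts per library against 319 to 441 for Ppp1r15a.

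Hspa5 (chr2:34772090-34776529) encodes BiP, the main chaperone of the ER lumen, which binds unfolded chains and keeps the sensors inactive. Its level was 741, 358 and 296 CPM in Flox, 453, 423 and 292 CPM in F4MKO and 461, 414 and 341 CPM in F4MKO + FSTL1 livers. Replicate 1 was the highest and replicate 3 the lowest library in each group, and Flox replicate 1 stood far above the next library. The log2 fold change was -0.26 ± 0.30 in F4MKO against Flox (adjusted p = 0.703) and 0.06 ± 0.30 in F4MKO + FSTL1 against F4MKO (adjusted p = 0.909). Without Flox replicate 1 the first of these was 0.25 (adjusted p = 0.657).

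Xbp1 (chr11:5520641-5525993) encodes the factor that IRE1 activates by splicing its mRNA. It measured 300, 184 and 214 CPM in Flox, 242, 186 and 196 CPM in F4MKO and 264, 299 and 258 CPM in F4MKO + FSTL1 livers. All F4MKO + FSTL1 values lay above all F4MKO values and inside the Flox range. The mean was 1.31-fold higher in F4MKO + FSTL1 than in F4MKO livers (log2 fold change 0.39 ± 0.17, adjusted p = 0.125). Against Flox the F4MKO + FSTL1 value was 0.23 ± 0.17 (adjusted p = 0.635), and without Flox replicate 1 the F4MKO value against Flox was 0.06 (adjusted p = 0.9) in place of -0.16 (adjusted p = 0.672).

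Herpud1 (chr8:94386429-94395371) encodes an ER membrane protein that helps send misfolded proteins to the proteasome. Its level was 373, 544 and 485 CPM in Flox, 277, 438 and 429 CPM in F4MKO and 461, 532 and 493 CPM in F4MKO + FSTL1 livers. Replicate 1 was the lowest library of each group, the reverse of Hspa5. The F4MKO + FSTL1 values were all above the F4MKO values, with a log2 fold change of 0.38 ± 0.18 (adjusted p = 0.168), and the F4MKO against Flox value was -0.29 ± 0.18 (adjusted p = 0.446). Values that did not overlap between F4MKO + FSTL1 and F4MKO livers were thus found for 2 of 10 members, Xbp1 and Herpud1, both higher, against 39% of all tested genes and 18% in the higher direction. Between F4MKO + FSTL1 and Flox livers no member was free of overlap, against 18.2% of all tested genes.

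**Figure D2:**
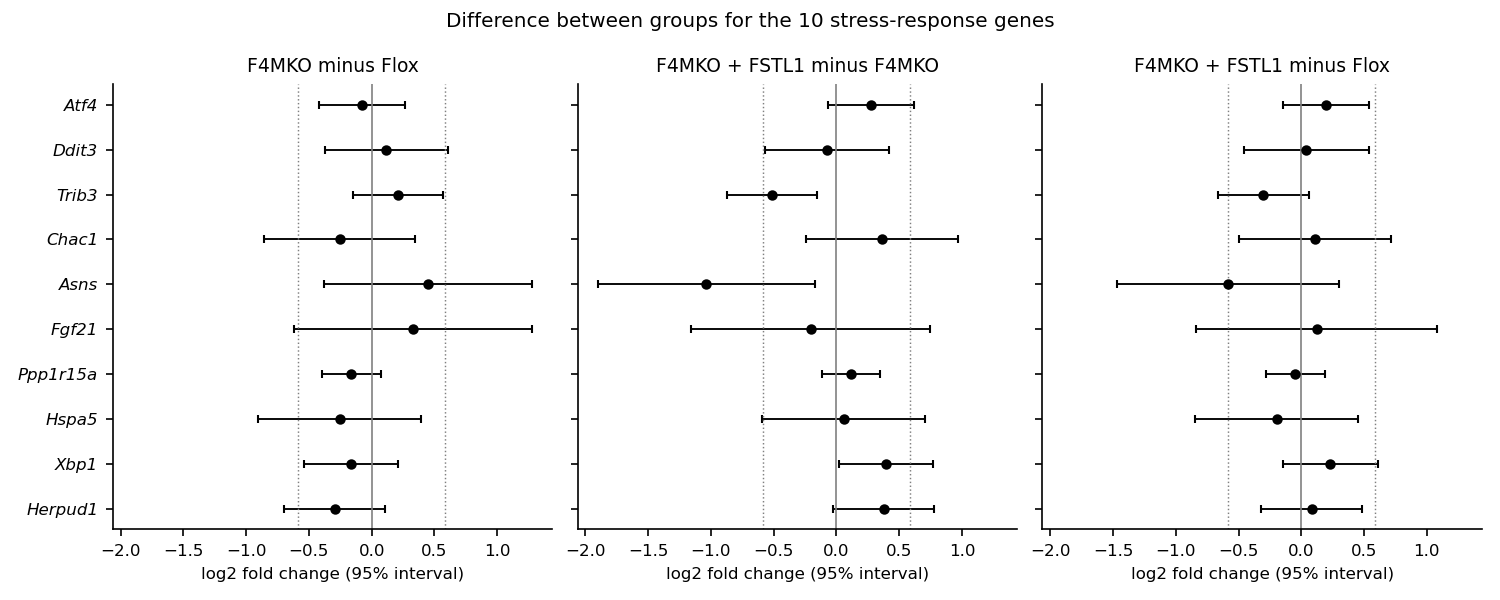
The plot gives the log2 fold change (x axis) of each of the 10 genes (y axis) in the 3 comparisons, with bars for the 95% interval of the edgeR fit and dotted lines at a fold change of 1.5 in either direction. Asns, Fgf21, Chac1 and Hspa5 have the widest intervals and Ppp1r15a the narrowest, and in F4MKO + FSTL1 minus F4MKO the intervals of Trib3 and Asns lie below 0 and that of Xbp1 above it.

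The members did not move as a unit. Their median log2 fold change was -0.12 in F4MKO against Flox (4 above 0, beside 49.4% of all tested genes, from -0.29 to 0.45), 0.09 in F4MKO + FSTL1 against F4MKO (6 above 0, beside 51.4%, from -1.04 to 0.39) and 0.06 in F4MKO + FSTL1 against Flox (6 above 0, beside 49.9%, from -0.58 to 0.23), and the medians of all tested genes were -0.003, 0.011 and 0.0. Single libraries carried these medians: the first was 0.129 (6 above 0) without Flox replicate 1, the second 0.003 (5 above 0) without F4MKO replicate 3, and the third ran from -0.091 to 0.118 with each library left out. The 5 genes with the composite site in the promoter window had F4MKO + FSTL1 against F4MKO values of -1.04 for Asns, -0.51 for Trib3, -0.21 for Fgf21, 0.37 for Chac1 and 0.38 for Herpud1. Across the 9 libraries, which share their groups, Asns and Trib3 had a Pearson correlation of log2 CPM of 0.83 (Spearman 0.58), and Ddit3 and Chac1 one of -0.77 (Spearman -0.82). Within groups, after subtraction of the group means, these were 0.68 and -0.80, and that of Hspa5 and Xbp1 was 0.75 (0.60 without the subtraction).

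The spread between mice of a group was larger for these genes than for most. The SD of log2 CPM within groups was 0.746 for Fgf21, 0.583 for Asns, 0.467 for Hspa5 and 0.444 for Chac1, and then 0.331 for Ddit3, 0.275 for Herpud1, 0.247 for Xbp1, 0.237 for Trib3, 0.230 for Atf4 and 0.107 for Ppp1r15a. The median over all tested genes was 0.196, and 9 of the 10 members lay above it. From the lowest to the highest of the 9 libraries, Asns spanned 5.78-fold and Ppp1r15a 1.25-fold.

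Levels between genes were compared per kilobase of the longest transcript. In Flox livers Herpud1 had the highest level at 239 ± 44.5 CPM per kb (mean ± SD, n = 3), followed by Hspa5 at 127 ± 65.6 and Xbp1 at 109 ± 28.2, which did not differ beyond their spread, and Atf4 at 47.4 ± 3.43. Fgf21 (14.5 ± 4.45 CPM per kb), Ddit3 (9.16 ± 2.64) and Trib3 (8.60 ± 0.387) followed, with Ppp1r15a (6.30 ± 0.301) and Chac1 (6.13 ± 2.57) at about the same level, and Asns was lowest at 1.66 ± 0.0557 CPM per kb. Herpud1, Hspa5 and Xbp1 thus stood above the other members on this scale. They did so in F4MKO and F4MKO + FSTL1 livers too, with Herpud1 first at 195 ± 46.3 and 254 ± 18.2 CPM per kb, Atf4 next after them and Asns last, and in F4MKO + FSTL1 livers Xbp1 (128 ± 10.3 CPM per kb) and Hspa5 (110 ± 16.4) changed places within their spread.

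The sensors and eIF2α kinases that stand upstream of these genes showed no called difference. Of 6 tested, 0 were called in any comparison by edgeR, with an unadjusted p under 0.05 for 0, 3 and 0 of them in the order above, where 3 of 6 stood beside 35.3% of all tested genes. For F4MKO + FSTL1 livers against F4MKO, Eif2ak4 (GCN2, the amino acid sensor) stood at -0.45 on the log2 scale (adjusted p = 0.0826), Eif2ak3 (PERK) -0.43 (adjusted p = 0.101) and Eif2ak1 (HRI, the heme sensor) 0.21 (adjusted p = 0.0841), and the values of these 3 did not overlap between the groups, beside 39% of all tested genes. Eif2ak2 (PKR, which binds double-stranded RNA) had -0.23, Ern1 (IRE1) -0.31 and Atf6 -0.05, with adjusted p of 0.287, 0.585 and 0.790. In F4MKO against Flox the 6 values ran from -0.12 for Eif2ak1 to 0.41 for Ern1, whose libraries in these 2 groups ranged from 11.7 to 28.8 CPM.

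Lists of further pathway genes were divided by role. They were chosen with earlier results of these data known, so the shares called in single lists, here and below, are descriptions and no independent support. Of 135 genes listed, 127 were tested, and 0 of them were called in F4MKO against Flox livers and 0 in F4MKO + FSTL1 against Flox livers. At an unadjusted p under 0.05 the counts were 18 and 14 of the 127, beside 16.9% and 13.4% of all tested genes. DESeq2 called 3 of the 127 (Atf3, Casp12 and Fgfr1, all higher) and 1 (Aldh18a1, lower). In F4MKO + FSTL1 against F4MKO livers 13 were called, all lower, which is 10.2% of those tested, beside 14.4% of all tested genes and 11.2% in the lower direction. All 13 were called again in 13 of 16 alternatives and at least 7 of them in the others, and without F4MKO replicate 1 the same 13 genes were called. The share of the whole collection was therefore no higher than that of all genes, and the calls lay in 4 of its 11 lists.

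**Figure D3:**
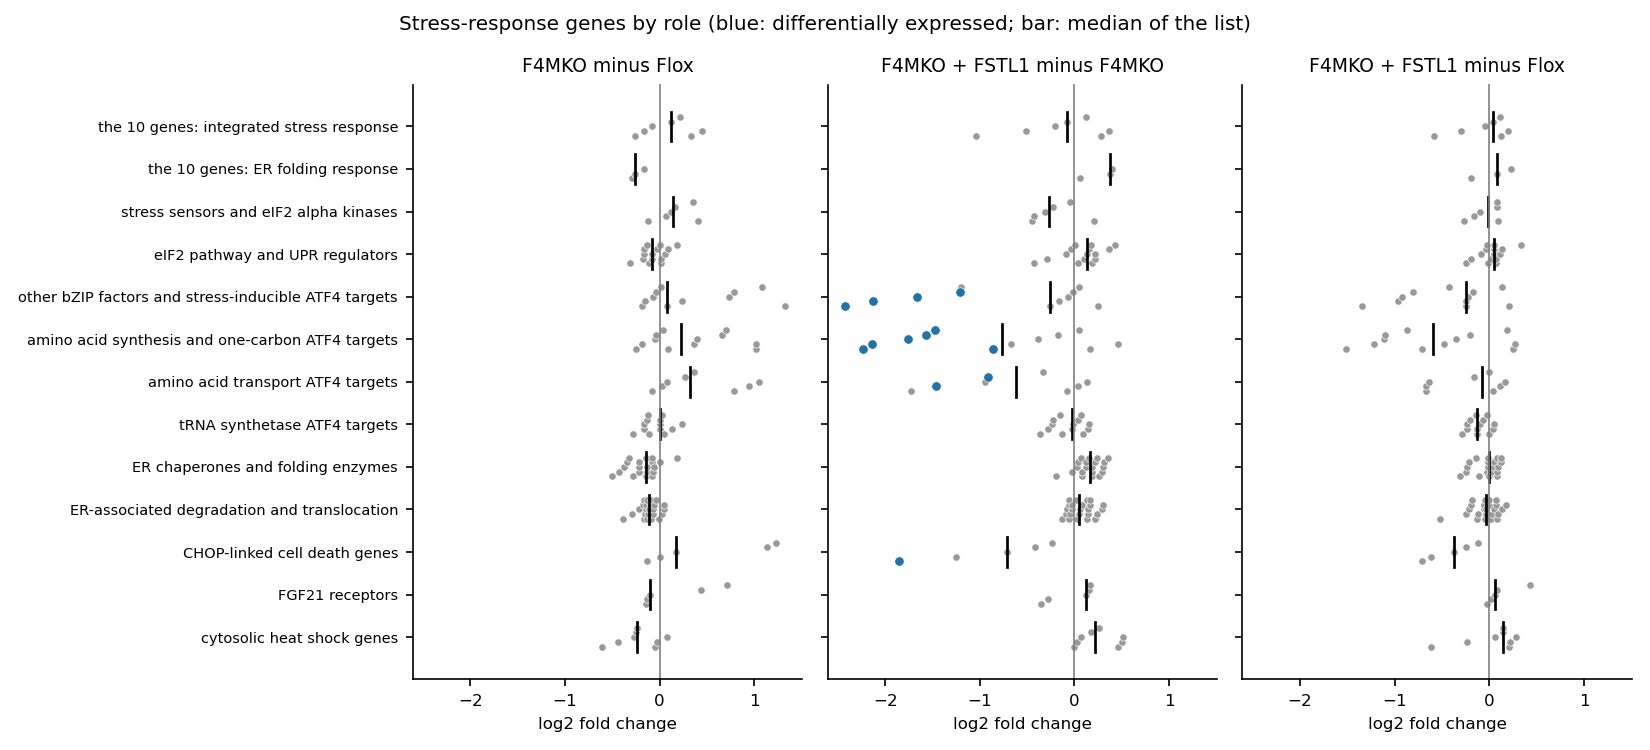
The plot gives the log2 fold change (x axis) of every tested gene of 13 lists (y axis) in the 3 comparisons, with called genes in blue and a bar at the median of each list. The 13 blue points lie in F4MKO + FSTL1 minus F4MKO, below 0, in the lists of bZIP factors and inducible ATF4 targets, amino acid synthesis, amino acid transport and CHOP-linked cell death.

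Among genes for amino acid synthesis and one-carbon metabolism, 6 of 12 were called lower in F4MKO + FSTL1 than in F4MKO livers, beside 11.2% of all tested genes. The median log2 fold change of the list was -0.77, with 9 below 0 and 3 above it. The 3 above 0, named after their values were seen, were Shmt2, Cth and Cbs, none of them called. Their group means were 189, 130.6 and 442.4 CPM in F4MKO and 259.5, 145.9 and 459 CPM in F4MKO + FSTL1 livers, above those of the called genes. Aldh18a1, the first enzyme of proline synthesis, measured 5.55, 3.48 and 3.39 CPM in F4MKO and 1.40, 1.01 and 1.25 CPM in F4MKO + FSTL1 livers, with 2.54 to 2.70 CPM in Flox. It fell 3.39-fold (log2 fold change -1.76 ± 0.25, adjusted p = 0.00154). Psat1, of serine synthesis, fell 4.39-fold (-2.13 ± 0.40, adjusted p = 0.00446), from 7.04, 3.31 and 2.83 CPM to 0.654, 0.865 and 1.52 CPM. Pck2, the mitochondrial phosphoenolpyruvate carboxykinase, fell 1.82-fold (-0.87 ± 0.12, adjusted p = 0.00168), from 11.5, 11.9 and 10.5 CPM to 5.70, 5.96 and 6.95 CPM. The other 3 called genes were named after their values were seen. They were Phgdh of serine synthesis (log2 fold change -2.23), Mthfd2 of mitochondrial folate metabolism (-1.57) and Pycr1 of proline synthesis (-1.47). All had group means under 5 CPM. The F4MKO + FSTL1 libraries held only 4 to 6 counts of Phgdh and 5 to 6 of Pycr1. These levels, 0.187 to 0.288 and 0.234 to 0.313 CPM, lay under the filter level of 0.432 CPM. Both genes are among the 6 calls, and their fold changes rest on few counts. Pycr1 lost its call without F4MKO + FSTL1 replicate 1 and without replicate 2 of that group. Pck2, Mthfd2 and Pycr1 lost theirs under the glmTreat bound of 1.5-fold. Asns, a member of the same functional class, had the uncalled -1.04 given above.

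Among amino acid transporters, 2 of 8 were called lower, beside 11.2% of all tested genes. Slc1a4, a carrier of alanine, serine and cysteine, went from 9.83, 7.41 and 5.31 CPM in F4MKO to 3.46, 2.45 and 2.25 CPM in F4MKO + FSTL1 livers (log2 fold change -1.46 ± 0.25, adjusted p = 0.0033). Slc1a5, the glutamine carrier ASCT2, went from 7.32, 5.24 and 6.99 CPM to 3.32, 3.36 and 3.71 CPM (-0.91 ± 0.17, adjusted p = 0.00434). The groups did not overlap for either gene, beside 39% of all tested genes, and both were chosen by their call in this comparison. Of 13 tested genes for tRNA synthetases and the tRNA exportin Xpot, a list of ATF4 targets, 0 were called, with a median of -0.03 and the smallest p at Gars (-0.37, adjusted p = 0.0531).

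Among other bZIP factors and stress-inducible ATF4 targets, 4 of 11 were called lower, beside 11.2% of all tested genes. Atf3, a bZIP repressor induced by many stresses, measured 4.24, 4.14 and 4.44 CPM in Flox, 16.1, 8.71 and 7.11 CPM in F4MKO and 2.76, 1.83 and 2.72 CPM in F4MKO + FSTL1 livers. It was 4.38-fold lower in F4MKO + FSTL1 than in F4MKO livers (log2 fold change -2.13 ± 0.29, adjusted p = 0.00152). Its F4MKO against Flox value of 1.32 ± 0.28 missed the threshold (adjusted p = 0.0610). The F4MKO and Flox values of Atf3 did not overlap, beside 21.8% of all tested genes. Cdkn1a, which encodes the cell-cycle inhibitor p21 and also answers to p53, fell 5.36-fold (-2.42 ± 0.37, adjusted p = 0.00199), from 46.4, 55.7 and 28.2 CPM to 6.92, 5.72 and 11.8 CPM. Nupr1, a small stress-induced nuclear protein, fell 2.31-fold (-1.21 ± 0.26, adjusted p = 0.00773). The other one, named after its values were seen, was Vldlr, a lipoprotein receptor (-1.66 ± 0.37, adjusted p = 0.0105).

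Of 5 CHOP-linked cell death genes, 1 was called lower in F4MKO + FSTL1 against F4MKO livers, beside 11.2% of all tested genes. Casp12, a caspase at the ER of mice, measured 5.48, 4.06 and 2.75 CPM in Flox, 13.5, 6.49 and 8.82 CPM in F4MKO and 3.04, 2.31 and 2.66 CPM in F4MKO + FSTL1 livers. It was 3.60-fold lower in F4MKO + FSTL1 than in F4MKO livers (log2 fold change -1.85 ± 0.30, adjusted p = 0.00255), and 1.23 ± 0.29 on the log2 scale in F4MKO against Flox (adjusted p = 0.0776).

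**Figure D4:**
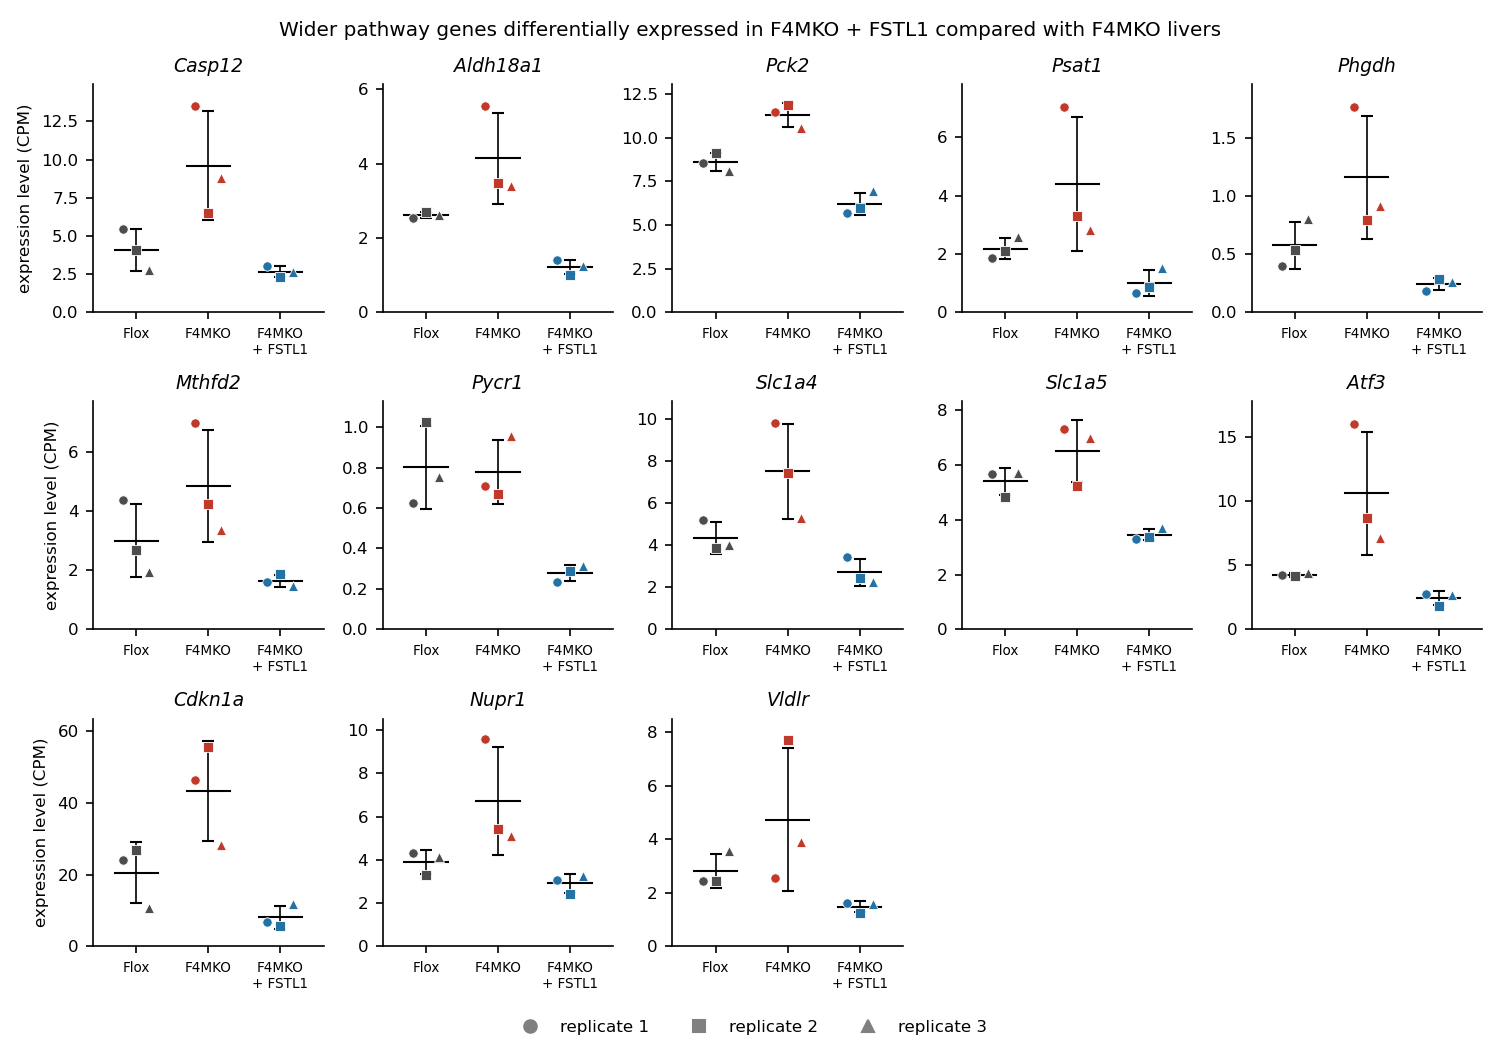
The plot gives the expression level (y axis, TMM-normalized CPM) of the 13 called pathway genes in each library, with symbols for replicates 1, 2 and 3, a bar at the group mean and an error bar of 1 SD over 3 mice. For each of the 13 genes all F4MKO + FSTL1 libraries lie below all F4MKO libraries, as the low F4MKO + FSTL1 values of Atf3 (1.83 to 2.76 CPM) show. The genes were chosen by their call in this comparison, so the separation adds no support. Of all tested genes, 39% did not overlap between these groups.

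The chaperone side held no called gene. Of 20 ER chaperones and folding enzymes, 0 were called in each comparison. At an unadjusted p under 0.05 the counts, beside 16.9%, 35.3% and 13.4% of all tested genes, were 1, 3 and 0 of these 20. Their median log2 fold change was -0.14 in F4MKO against Flox, where 18 of 20 lay below 0 beside 50.6% of all tested genes, and 0.17 in F4MKO + FSTL1 against F4MKO, where 18 of 20 lay above 0 beside 51.4% of all tested genes. These comparisons share the F4MKO libraries. In F4MKO + FSTL1 against Flox the median was -0.005, with 9 above and 11 below 0. The values against Flox turned with Flox replicate 1, the library in which Hspa5 also stood apart: without it 15 of 20 lay above 0 in F4MKO against Flox (median 0.128) and 19 of 20 in F4MKO + FSTL1 against Flox (median 0.248). Manf, a secreted ER-stress factor named after its values were seen, shows this with 119, 46.7 and 39.0 CPM in Flox livers. In F4MKO + FSTL1 against F4MKO the count above 0 was 13 of 20 and the median 0.04 without F4MKO replicate 3. The smallest p were those of Fkbp2, a peptidyl-prolyl isomerase, in the first comparison (-0.28, adjusted p = 0.288), of Sil1, the exchange factor of BiP, in the second (0.31, adjusted p = 0.0618) and of Sdf2l1 in the third (-0.31, adjusted p = 0.766, and 0.22, adjusted p = 0.792, without Flox replicate 1).

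Of 24 genes for ER-associated degradation and translocation, 0 were called, with medians of -0.12, 0.05 and -0.04, of which the values against Flox became 0.02 and 0.11 without Flox replicate 1. Sec62, a translocon subunit, stood at 0.30 ± 0.09 on the log2 scale in F4MKO + FSTL1 against F4MKO (adjusted p = 0.0389, fold change 1.23, under the threshold of 1.5), and the smallest p in the other comparisons were those of Derl2 (-0.22, adjusted p = 0.316) and Edem2 (-0.21, adjusted p = 0.395, and -0.10 without Flox replicate 1). Of 15 eIF2 pathway and unfolded protein response regulators, 0 were called. Creb3l3, an ER-tethered bZIP factor of hepatocytes, had 380, 307 and 411 CPM as means of Flox, F4MKO and F4MKO + FSTL1 livers, with -0.31 ± 0.11 in F4MKO against Flox (adjusted p = 0.206) and 0.42 ± 0.11 in F4MKO + FSTL1 against F4MKO (adjusted p = 0.0221, fold change 1.34, under the threshold). Ppp1r15b, the constitutive counterpart of GADD34, was at 0.33 in F4MKO + FSTL1 against Flox (adjusted p = 0.201). Of 8 cytosolic heat shock genes 0 were called, with the smallest p at Hspb1 against Flox (-0.60 in F4MKO, adjusted p = 0.320, and -0.61 in F4MKO + FSTL1, adjusted p = 0.395) and at Hspa8 in F4MKO + FSTL1 against F4MKO (0.52, adjusted p = 0.0563). Hspb1 measured 219 CPM in Flox replicate 1 beside 99.6 and 99.7 CPM in the other Flox libraries, and without that library its values were -0.12 (adjusted p = 0.853) and -0.13 (adjusted p = 0.858). Without F4MKO + FSTL1 replicate 3 Hspa8 was called higher (0.65, adjusted p = 0.0326).

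Markers of other liver cells differed between the same groups as the called pathway genes. When F4MKO + FSTL1 livers were set against F4MKO, 8 of 10 macrophage, 7 of 10 hepatic stellate cell and 4 of 5 cholangiocyte markers were called lower. The share of all tested genes called lower there was 11.2%. In the same comparison 0 of 10 endothelial, 0 of 7 tested lymphocyte and 0 of 3 tested plasma cell markers were called, beside 14.4% of all tested genes. The stellate markers summed to 433 to 509 CPM in Flox, 587 to 773 CPM in F4MKO and 279 to 387 CPM in F4MKO + FSTL1 livers. The cholangiocyte markers summed to 50.7 to 88.9 CPM in Flox, 160 to 430 CPM in F4MKO and 36.1 to 53.9 CPM in F4MKO + FSTL1 livers. Of these 5, Epcam and Spp1 were called higher in F4MKO against Flox, where 0.271% of all tested genes were called. The macrophage markers summed to 831 to 1303 CPM in Flox, 1081 to 1137 CPM in F4MKO and 500 to 784 CPM in F4MKO + FSTL1 livers. Hepatocyte markers were called in 1 of 8 cases, Cyp2e1, higher in F4MKO + FSTL1 than in F4MKO livers, beside 3.21% of all tested genes. None of these markers was at 0 in every library. The part of these cell types in the 13 calls was not tested.

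**Figure D5:**
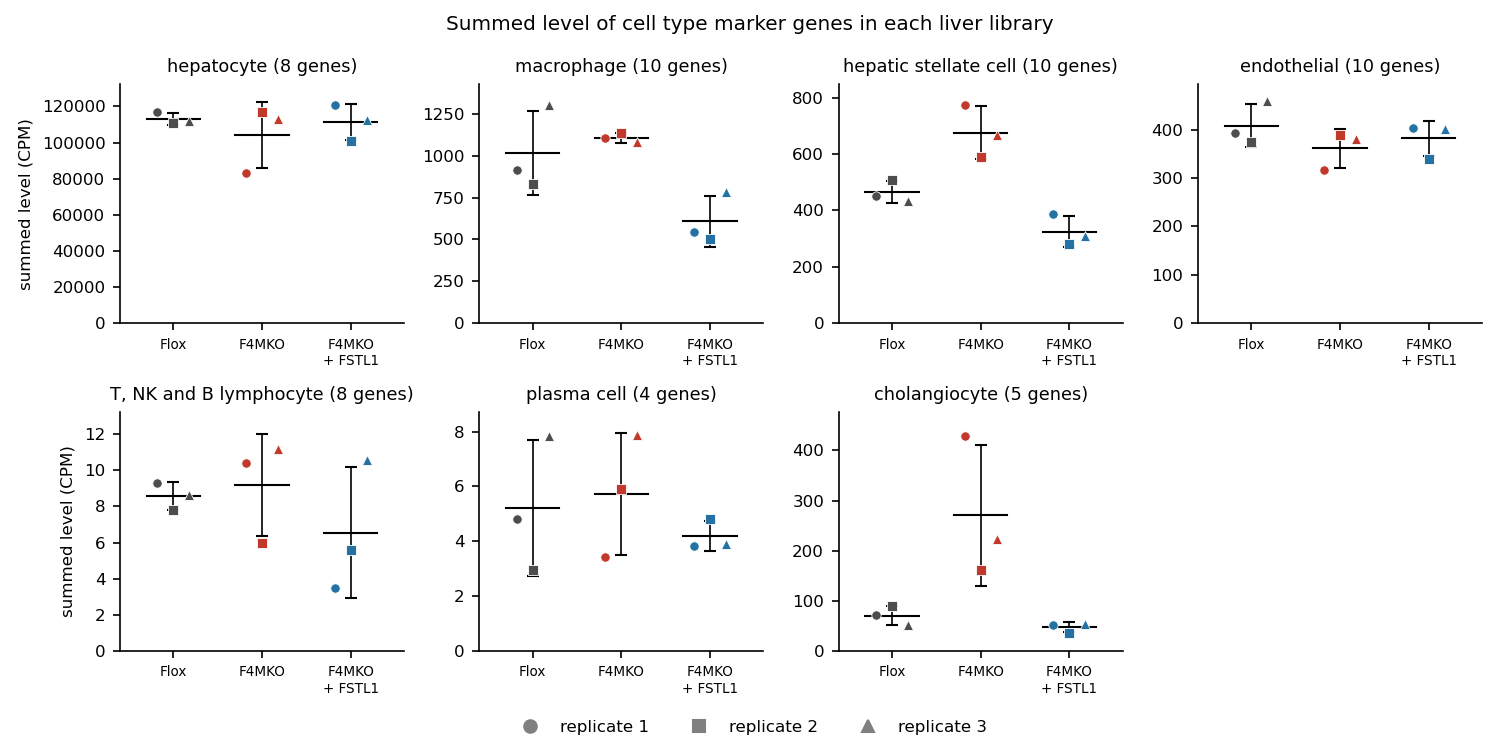
The plot gives the summed expression level (y axis, TMM-normalized CPM) of 7 lists of cell type markers in each library, with symbols for replicates 1, 2 and 3, a bar at the group mean and an error bar of 1 SD over 3 mice. The cholangiocyte and stellate sums of all F4MKO libraries lie above those of all other libraries, and F4MKO replicate 1 has the lowest hepatocyte sum (83380 CPM).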

How the data were processed

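RNA of 9 mouse liver pieces, 3 per group, was sequenced as 150 bp paired-end reads on BGIseq500. The authors trimmed the reads with Trim Galore 0.6.7, mapped them to mm10 with HISAT2 2.2.1 and counted them on genes with featureCounts 2.0.1, per the submitters' processing notes, and deposited raw counts per gene and library. The gene annotation, the use of strand and the handling of multi-mapped reads are not given in the sources used here. How reads over bases shared by a sense and an antisense gene were counted is therefore not known. Besides Ddit3 and Ppp1r15a this concerns Herpud1, which shares 544 bases with Gm15890 on the opposite strand, a gene absent from the count table.

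The analysis used edgeR 4.0.16 under R 4.3.3. The filter was filterByExpr (minimum count 10, or 0.432 CPM in the median library, and total 15), passed by 14379 of 24008 genes. Library sizes were normalized by TMM (factors 0.927 to 1.17), and 1 quasi-likelihood fit took all 9 libraries, with group means as its terms and a common biological coefficient of variation of 0.150. A gene was called at an adjusted p under 0.05 (Benjamini-Hochberg over all tested genes) and a fold change above 1.5, as in the study's methods, which used DESeq2. SE is the log2 fold change divided by the root of the F statistic, log2 CPM used a prior count of 2, and 95% intervals came from the model. Its code was tested on simulated data.

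The 10 members and the gene lists were chosen with earlier results of these data known. Named are all members, all sensors, and in each other list and comparison the 3 called genes with the smallest p or, with none called, the 1 gene with the smallest p. Promoters and gene spans are from RefSeq (GRCm38.p6), transcript lengths and overlaps from GENCODE M21. Transcripts of other genes with 95% identity over 150 bases were searched for with BLAST 2.17.0, and none was found for any member. Alternatives were DESeq2 1.42.0, its size factors in edgeR, no filter, only the 6 libraries compared, a replicate block, calls by adjusted p alone, glmTreat with 1.5-fold as its null bound and each library left out in turn.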

Additional observations from a re-analysis of the deposited data

How the results depend on the processing

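The count of called members was 0 under each alternative in F4MKO against Flox and in F4MKO + FSTL1 against Flox. In F4MKO + FSTL1 against F4MKO it was 1 with DESeq2 (Asns), 1 without a filter on low counts (Asns), 1 without a fold-change threshold (Trib3), and 0 to 2 with each library left out in turn, 1 without F4MKO replicate 2 (Trib3) and 2 without F4MKO + FSTL1 replicate 3 (Trib3 and Asns). The 13 wider pathway genes of that comparison became 7 in a test against a fold change of 1.5 and 11 to 17 with each library left out, and calls in the higher direction appeared under some settings. The 17 without a fold-change threshold included 4 higher genes (Creb3l3, Ppp1r15b, Sec62 and Shmt2), and the 17 without F4MKO + FSTL1 replicate 3 added Hspa8 and Dnajb1 as higher and Slc7a11 and Tnfrsf10b as lower. In F4MKO against Flox their count of 0 became 3 with DESeq2 (Atf3, Casp12 and Fgfr1), 5 without a filter (these and Cdkn1a and Slc1a4), 2 with a replicate block (Atf3 and Casp12) and 0 to 1 with each library left out (Atf3 without F4MKO replicate 3), and in F4MKO + FSTL1 against Flox it became 1 with DESeq2 (Aldh18a1) and 2 without a filter (Aldh18a1 and Cdkn1a).

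The counts over all genes moved most. The 39 of F4MKO against Flox became 338 with DESeq2, 478 without a filter, 11 with only the 6 libraries compared, 134 with the block, 0 in a test against a fold change of 1.5, and 0 to 100 with each library left out. The count was 0 without any single Flox replicate and without F4MKO replicate 1. The 2070 of F4MKO + FSTL1 against F4MKO became 620 in a test against a fold change of 1.5 and 1295 to 2216 with each library left out, of which 1295 was without F4MKO + FSTL1 replicate 2 and 1335 without F4MKO replicate 1. The single gene of F4MKO + FSTL1 against Flox became 2 with DESeq2's size factors, 284 with DESeq2, 379 without a filter, 0 with only the 6 libraries, 15 with the block, 0 in a test against a fold change of 1.5, and 0 to 101 with each library left out, 101 without F4MKO + FSTL1 replicate 3. The cause was not tested.

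Same-numbered mice are different animals. The numbers were not taken as a pairing, since the study's methods compare groups without a pairing term. The correlation of same-numbered deviations was 0.082, 0.042 and 0.169 between F4MKO and Flox, 0.111, 0.092 and 0.304 between F4MKO + FSTL1 and F4MKO, and 0.001, -0.099 and 0.206 between F4MKO + FSTL1 and Flox. Their means were 0.098, 0.169 and 0.036, beside -0.049, -0.084 and -0.018 for libraries with different numbers. The deviations within a group sum to 0, so the second set of means follows from the first and is no separate baseline. Each library correlated best with its own number between F4MKO + FSTL1 and F4MKO, a hint from the data and not the design. Between F4MKO and Flox all but Flox replicate 2 did so (0.05 with F4MKO replicate 1 beside 0.042). Between F4MKO + FSTL1 and Flox the match was not general. With the replicate block 0 members were called in each comparison, and the log2 fold change of Fgf21 in F4MKO + FSTL1 against Flox was -0.003 in place of 0.12.

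Counts by sign or medians with a library left out, chosen after seeing the data, stand above for the members, the ER chaperones and ER-associated degradation. For the other lists, including those with called genes, they are not given. Signs of uncalled member differences turned when a library was left out. In F4MKO against Flox the log2 fold changes ranged from -0.18 to 0.059 for Atf4, -0.09 to 0.38 for Ddit3, -0.54 to 0.064 for Chac1, -0.068 to 0.65 for Asns, -0.50 to 0.25 for Hspa5 and -0.31 to 0.062 for Xbp1. In F4MKO + FSTL1 against F4MKO they ranged from -0.18 to 0.13 for Ddit3, -0.76 to 0.15 for Fgf21 and -0.11 to 0.18 for Hspa5. In F4MKO + FSTL1 against Flox they ranged from -0.091 to 0.30 for Ddit3, -0.17 to 0.43 for Chac1, -0.43 to 0.48 for Fgf21, -0.11 to 0.046 for Ppp1r15a, -0.44 to 0.31 for Hspa5 and -0.054 to 0.21 for Herpud1. With 27 to 206 counts per library, Asns is the member whose precision depth limits most.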

Other observations

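The genes whose pattern over the 9 libraries was most like that of the 10 members were sought outside the lists, as the Pearson correlation of log2 CPM with the mean z score of the members. They were Zxdb (r = 0.952), Gt(ROSA)26Sor (0.930), Dcakd (0.910), Hs3st6 (0.903) and Rpp21 (0.883). Zxdb ranged from 1.50 to 2.45 CPM and Gt(ROSA)26Sor from 6.73 to 9.04 CPM, with the highest values in Flox replicate 1 and F4MKO + FSTL1 replicates 2 and 3 for the latter. These are the highest of all tested genes outside the lists by construction and carry no test.

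For single members the most similar gene was Hspa13, another chaperone of the HSP70 family, for Hspa5 (r = 0.953 over 9 libraries), Gas5 for Atf4 (0.952), Uox for Herpud1 (0.953) and Maml2 for Trib3 (0.980). It was Bysl for Ddit3 (0.946), Syt1 for Chac1 (0.935), Nfkbid for Asns (0.975) and Zrsr1 for Fgf21 (0.962). For Ppp1r15a it was Slc25a33 (0.964) and for Xbp1 Snx15 (0.96). Each is the highest of all tested genes outside the lists by construction and carries no test. The 9 libraries share their groups and depths.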
